A study of Monodelphis domestica with 2 samples.

Results

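The genes described here encode subunits of the receptors for glutamate, GABA and glycine, the fast and modulatory transmitters of cortical synapses, in nuclei of the opossum primary visual cortex (V1). They were taken by symbol: a gene belonged to the set when its name began as those of the AMPA, kainate, delta or NMDA receptor subunits, the metabotropic glutamate receptors, the GABA-A or GABA-B receptor subunits or the glycine receptor subunits do. The rule matched 41 symbols, 1 of which encodes no receptor subunit and was dropped, leaving 40 of the 30800 genes in the files. These were 4 AMPA genes, 4 kainate genes, 2 delta genes, 5 NMDA genes, 5 metabotropic glutamate genes, 11 GABA-A genes, 3 GABA-A rho genes, 2 GABA-B genes and 4 glycine genes. Only 11590 genes had a symbol in the files, and 11 receptor genes known from RefSeq had none there and were not analysed here (among them GRM2, GRM5, GRIN2D, GRIN3A, GRIK5, GABRB1, GABRD, GABRE, GABRG3 and GABRQ).

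Most of these proteins are ion channels assembled from several subunits around a pore. Glutamate opens AMPA, kainate and NMDA receptors, which let cations in and excite the cell, and NMDA receptors pass current only when the cell is also depolarised. GABA and glycine open chloride channels of another family, which in the adult cortex mostly inhibit. Metabotropic glutamate receptors and GABA-B receptors open no pore of their own and act through G proteins. In each family the choice of subunit sets how fast the channel opens and closes, how well it binds its transmitter, which ions it passes and where in the cell it sits, so that neurons with the same transmitters around them can respond differently.

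Single-nucleus RNA was counted in V1 of the opossum Monodelphis domestica, a laboratory marsupial. The samples were 2 adult male animals, aged 1.5 years (animal 1) and 2 years (animal 2), forming 1 group. V1 of both hemispheres was frozen, nuclei were sorted for the DNA stain Draq5 to remove debris, and each suspension filled 2 libraries, which counted as 1 replicate. The animals were prepared side by side by different experimenters, so that animal, age and handling cannot be told apart.

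The authors' annotation placed 32764 nuclei in 18 subclasses: 8 glutamatergic (4 of them intratelencephalic, IT_A to IT_D, and L5PT, L5NP, L6CT and L6b), 5 GABAergic (Pvalb, Sst, Vip, Lamp5 and Frem1) and 5 non-neuronal. Libraries held 55625042 to 69706055 UMIs (unique molecular identifiers, each standing for 1 captured RNA molecule), and pairs of libraries shared 13 to 26 nuclear barcodes. PVALB had no symbol in the files, so the Pvalb subclass was not checked by a marker of its own and stands as annotated. Of 40 class and subclass markers with a symbol, 33 were highest in a subclass of their own class or label in both animals. The exceptions were FREM1 (higher in Lamp5), SOX6 (OPC), FEZF2 and BCL11B (L5NP in 1 animal or both), TLE4, TSHZ2 (low in L5NP) and CCN2 (near absent in L6b), so that L5NP, L6b and Frem1 were not marked by TSHZ2, CCN2 and FREM1 and stand here as the annotation names them. The UMIs of all nuclei of a subclass in an animal were added up, here called a sum, and a level is given in CPM (UMIs of the gene for every 1000000 of that sum), animal 1 before animal 2. IT_D (58 nuclei in animal 1), L6b (56 and 53) and endothelial nuclei (29 and 36) rest on few nuclei. Levels of different genes are not compared, because a longer gene gives more nuclear RNA fragments.

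The receptor genes ranged from abundant to nearly undetected. In both animals 32 of the 40 reached 20 CPM in at least 1 subclass. The other 8 never did: GABRA6 (92 UMIs in all labelled nuclei), GABRP (14), GABRR1 (146), GABRR3 (126), GRIN3B (90) and GRM6 (99), which stayed under the count filter of the neuronal fit, and GABRR2 and GLRA1, which passed it. GABRA6, known from cerebellar granule cells, GRM6, known from retinal bipolar cells, and the rho subunits, known from the retina, are background examples of receptors with their main site elsewhere. In neurons 34 of the 40 genes were tested. In all, 26 of the 40 had their highest neuronal level in the same subclass in both animals.

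**Figure D1:**
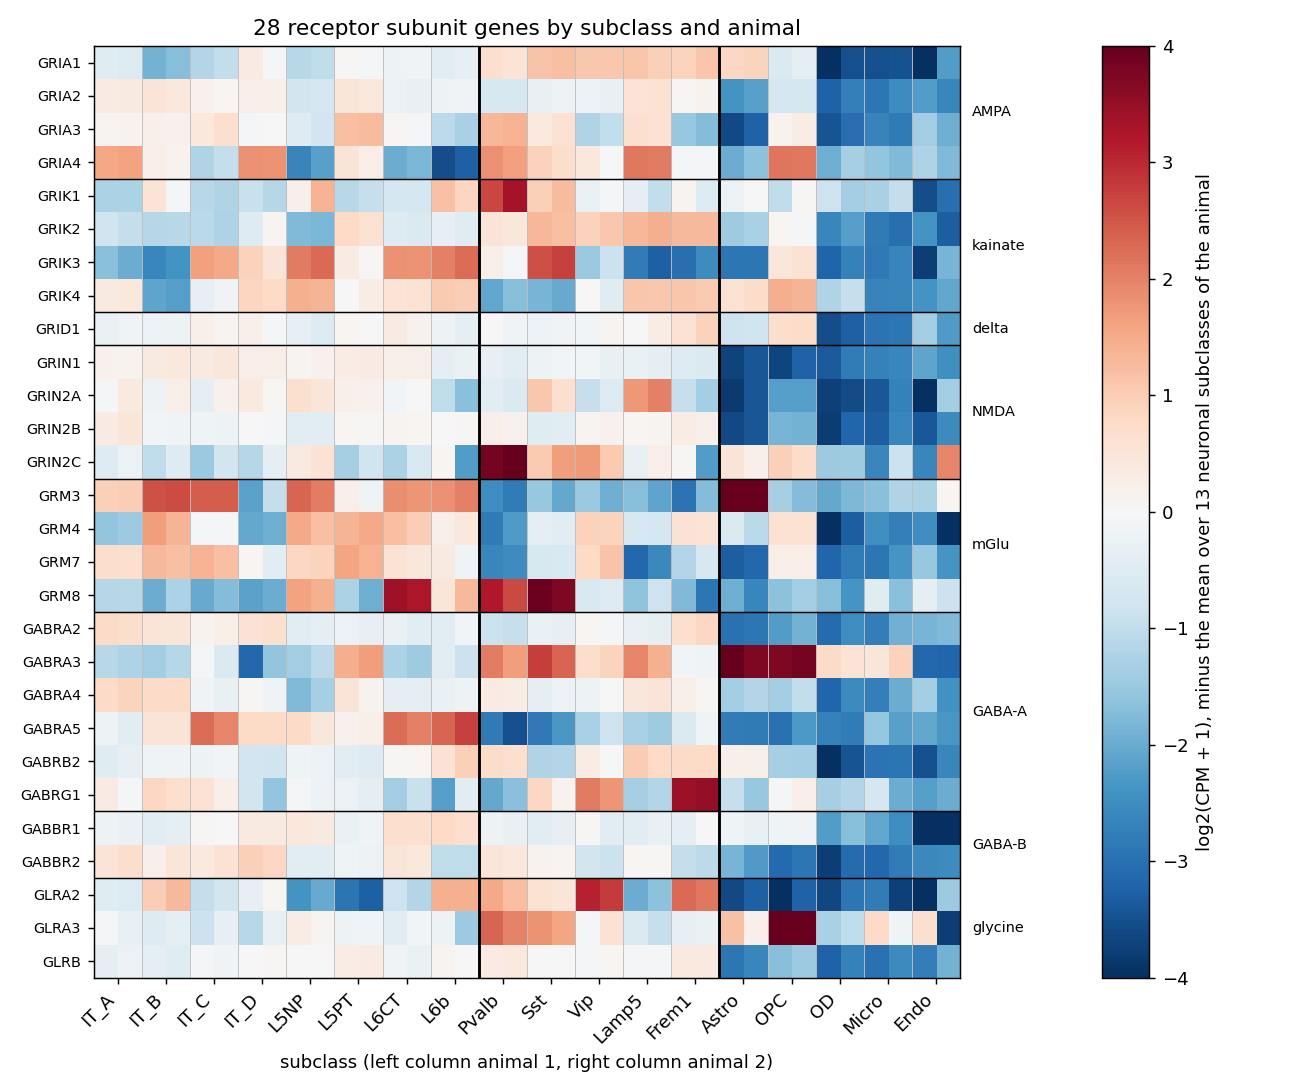
Level of 28 of the 32 receptor genes that reached 20 CPM in both animals in at least 1 subclass. Each pair of columns is a subclass (animal 1 left, animal 2 right), rows are genes grouped by family, and colour is log2(CPM + 1) minus that gene's mean over the 13 neuronal subclasses of the same animal; the heavy lines part glutamatergic, GABAergic and non-neuronal subclasses. Colours of the animals match for most genes, GRM8 is red in L6CT, Pvalb and Sst, and most rows are blue in oligodendrocytes, microglia and endothelial nuclei.

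Among the 26 genes with at least 10 UMIs in each of the 26 neuronal sums, some were near uniform and some differed by 38.8-fold or more between subclasses. GLRB, the beta subunit that glycine receptors share, differed least, by 1.69- and 1.84-fold between its highest and lowest neuronal subclass in animals 1 and 2. GRIN2B, GRIN1 and GRID1 followed, with 1.74- and 1.91-fold, 1.84- and 2.05-fold and 1.88- and 2.72-fold. These include GRIN1, the obligatory subunit of NMDA receptors. At the other end stood GLRA2, a glycine receptor alpha subunit (69.0- and 73.7-fold), GRIK3, a kainate receptor subunit (49.5- and 66.2-fold), GRM3, a metabotropic receptor coupled to inhibition of adenylyl cyclase (47.7- and 43.7-fold), GRIA4, an AMPA subunit (52.2- and 42.0-fold), and GABRA5, a GABA-A alpha subunit (38.8- and 86.9-fold). The order of the 13 subclasses was alike in the animals, with a median Spearman rho of 0.959 over the 26 genes and a lowest value of 0.764 (GABBR1). These rho values are over 13 subclasses that share libraries and are descriptive.

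The question of the first comparison was how receptor genes differed between inhibitory and excitatory neurons. Of the 34 genes tested, 12 were higher and 14 lower in GABAergic than in glutamatergic subclasses at an adjusted p under 0.05 (edgeR quasi-likelihood test), where 42.8% of all 16156 genes tested were called (20.8% higher and 22.0% lower). The tested receptor genes had a median of 60638 UMIs in the neuronal sums against 2322.0 over all genes tested, and no comparison at matched counts was made, so nothing is read from their share. Their median log2 fold change was -0.02, against 0.01 over all genes tested. The subclass labels were themselves drawn from these expression values, so a p here sets a difference against the spread between animals and is not independent evidence of it. A fold change averages the log levels of the subclasses of each class with equal weight.

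Genes of opposite direction stood within the same family. AMPA genes were 2 higher and 2 lower, kainate genes 2 higher and 2 lower, GABA-A genes 3 higher and 3 lower of 9 tested, glycine genes 3 higher of 4 tested, metabotropic glutamate genes 1 higher and 3 lower of 4 tested, and both GABA-B genes were lower. Among the genes with at least 20 CPM in the higher class, GABRA3, GRIN2C, GRIK2, GLRA2 and GRIA1 had the largest positive fold changes and GRM3, GABRA5, GRM7 and GRIK3 were among those with the largest negative ones.

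**Figure D2:**
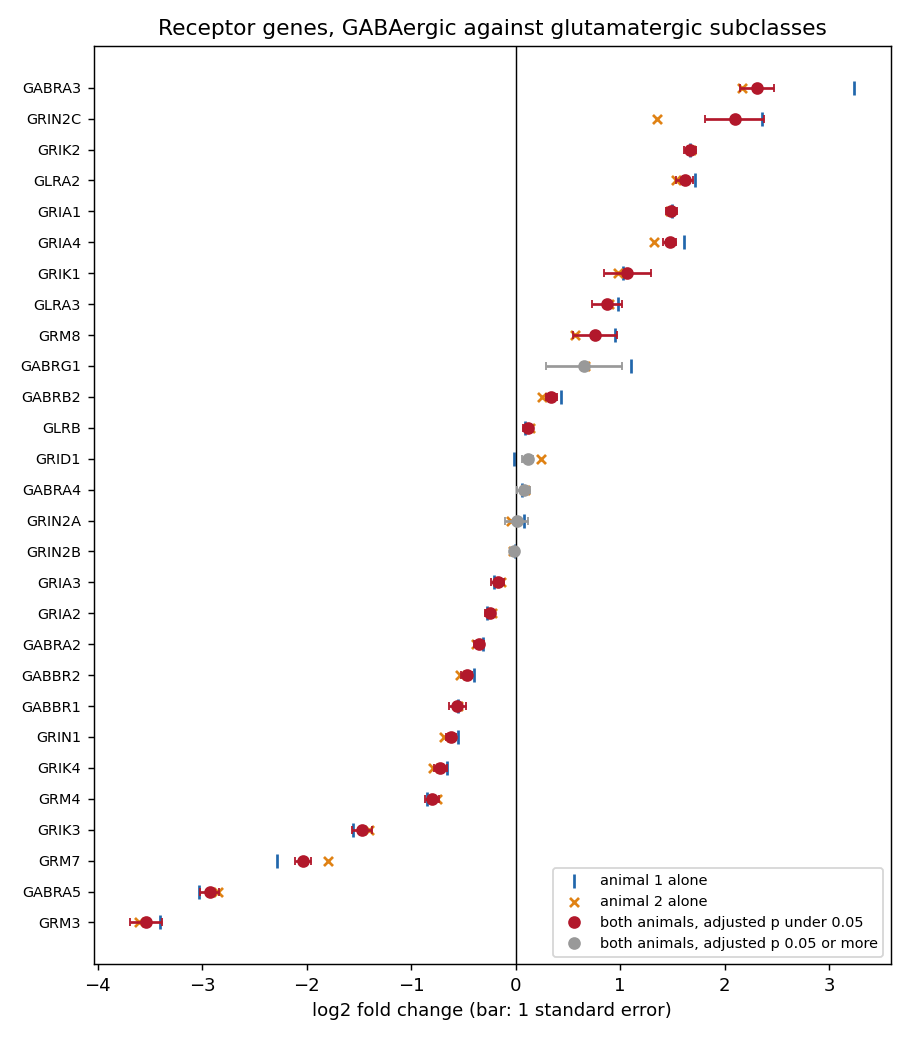
Log2 fold change between GABAergic and glutamatergic subclasses for 28 tested receptor genes with at least 10 CPM in the higher class. Points are the fit on both animals with 1 standard error, red where the adjusted p was under 0.05, and ticks and crosses are the difference within each animal alone. GRIN2B and GRIN2A lie near 0, and no gene called in red had its animals on opposite sides of 0.

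AMPA receptors carry the fast part of excitatory transmission, and channels with the GRIA2 subunit are nearly closed to calcium. GRIA1, found in many plastic synapses, ran from 1063 to 1831 CPM (median 1544) over the 10 GABAergic sums and from 222 to 1045 CPM (median 588) over the 16 glutamatergic sums. All GABAergic sums of GRIA1 lay above all glutamatergic ones (log2 fold change 1.49, SE 0.054, adjusted p = 1.63e-15). IT_B held the lowest neuronal level (224 and 222 CPM) and Sst the highest (1831 and 1668 CPM). GRIA2 was slightly lower in GABAergic neurons (log2 fold change ± SE of -0.25 ± 0.043, adjusted p = 5.52e-05), with overlap. Lamp5 neurons held most, at 2839.6 and 3099 CPM, and it was low in Pvalb neurons, at 1253 and 1307 CPM, and in L5NP neurons, at 1172 and 1251 CPM.

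GRIA3 and GRIA4, the other AMPA subunits, differed widely between subclasses of each class. GRIA3 measured 947 and 1060.5 CPM in Pvalb neurons and 879.6 and 959 CPM in L5PT neurons, against 132 and 119.9 CPM in Frem1 and 185 and 165 CPM in L6b neurons. Pvalb stood above the other GABAergic subclasses (log2 fold change 1.80, SE 0.10, adjusted p = 2.06e-11). Between the classes the sign for GRIA3 depended on the averaging, with a fold change of -0.17 from log levels but mean levels of 495 CPM in GABAergic and 445 CPM in glutamatergic subclasses. GRIA4 was highest in Lamp5 (1897 and 1749 CPM), IT_D (1564 and 1425 CPM), Pvalb (1533 and 1287 CPM) and IT_A (1282 and 1241 CPM). Its lowest levels were in L6b (36.3 and 41.7 CPM), L5NP (68.5 and 90.6 CPM) and L6CT (109 and 115 CPM). Among glutamatergic subclasses the fit placed IT_D higher by 2.83 ± 0.10 and IT_A by 2.54 ± 0.095 (log2 ± SE), and L6b lower at -3.37 ± 0.20.

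Kainate receptors act on both sides of the synapse and tune transmitter release as well as excitability. GRIK2, a principal channel-forming subunit, was higher in GABAergic neurons, 1864 to 3691 CPM (median 3178) over 10 sums, than in glutamatergic neurons, 380.2 to 2247 CPM (median 826) over 16 sums (log2 fold change 1.67, SE 0.06, adjusted p = 1.47e-15). The classes overlapped through L5PT, a subclass of deep-layer neurons that project out of the cortex, which held 2247 and 2059 CPM and stood above the other glutamatergic subclasses at 1.62 ± 0.10. GRIK3, a subunit of low glutamate affinity, was lower in GABAergic subclasses on average (log2 fold change -1.47, SE 0.094, adjusted p = 2.1e-11). Yet its highest neuronal level was in the GABAergic Sst neurons, 1765 and 1695 CPM. L5NP (1235 and 1228 CPM), L6b (1200.2 and 1192 CPM) and L6CT (1045 and 884 CPM) followed. Frem1 (35.7 and 43.8 CPM), Lamp5 (41.2 and 25.6 CPM) and IT_B (47.7 and 48.1 CPM) held the least, and IT_B lay below the other glutamatergic subclasses at -3.36 ± 0.19.

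GRIK4 encodes a subunit that raises the affinity of kainate receptors and forms no channel alone. It was lowest in IT_B (151 and 142 CPM), Pvalb (154 and 199.983 CPM) and Sst (179.5 and 161 CPM) and highest in L5NP (1767 and 1684 CPM). Lamp5 (1403 and 1389 CPM) and Frem1 (1400.0 and 1342 CPM) were also high, and Vip lay between (640.4 and 466 CPM). GRIK1 was sparse outside Pvalb neurons, where it reached 73.4 and 79.9 CPM (log2 fold change 3.10, SE 0.26, adjusted p = 1.04e-08). The delta receptors bind cerebellins and organise synapses. GRID1 varied by 1.88- and 2.72-fold, was highest in Frem1 (406 and 475 CPM), and did not differ between the classes at this threshold (log2 fold change 0.11, SE 0.054, adjusted p = 0.0929).

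NMDA receptors pair GRIN1 with GRIN2 subunits, of which GRIN2A gives faster currents and GRIN2B slower ones. GRIN1 ran from 253 to 355 CPM (median 296) in GABAergic sums and from 274 to 521 CPM (median 440.2) in glutamatergic sums, and was lower in the former (log2 fold change -0.62, SE 0.051, adjusted p = 1.48e-09). GRIN2B did not differ at this threshold (-0.02 ± 0.04, adjusted p = 0.829), nor did GRIN2A (0.01 ± 0.11, adjusted p = 1.000). Within the GABAergic class GRIN2A was far from even. Lamp5 neurons held 825 and 1107 CPM and Sst neurons 525 and 439.8 CPM, against 130.2 and 107 CPM in Frem1 and 130.3 and 190.1 CPM in Vip neurons. The Lamp5 sums lay above those of every other neuronal subclass (log2 fold change 2.27, SE 0.18, adjusted p = 6.77e-09).

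GRIN2C, a subunit known from cerebellar granule cells that weakens the magnesium block, was concentrated in Pvalb neurons. It measured 86.6 and 84.0 CPM there, 11.6 and 14.1 CPM in Sst and 19.0 and 8.91 CPM in Vip neurons, and at most 6.88 CPM in any glutamatergic sum. No other neuronal sum came near the Pvalb sums (log2 fold change 3.66, SE 0.24, adjusted p = 1.54e-10). The difference between GABAergic and glutamatergic classes in this gene (2.10 ± 0.28) came with a spread inside the GABAergic class from 0 to 86.6 CPM (median 10.2). GRIN3B held 18 UMIs in all neurons and was not tested there.

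The 5 metabotropic glutamate receptor genes analysed here all belong to the groups that lower cyclic AMP, and several sit at presynaptic terminals. GRM2 and GRM5 had no symbol in the files, so the set does not show which groups occur in V1. GRM3 was the gene with the largest negative fold change between the classes. GABAergic sums held 18.7 to 57.6 CPM (median 46.2) and glutamatergic sums 33.4 to 1188 CPM (median 613) (log2 fold change -3.54, SE 0.15, adjusted p = 2.69e-14). The classes overlapped only through IT_D of animal 1, where GRM3 measured 33.4 and 100.002 CPM, a difference between animals that rests on 58 nuclei in animal 1. L5PT was also low for a glutamatergic subclass (182 and 172 CPM), while IT_B (893 and 1188 CPM) and IT_C (820.2 and 1049.8 CPM) were the highest neurons.

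GRM7, a low-affinity receptor of active release sites, was lower in GABAergic neurons (log2 fold change -2.04, SE 0.08, adjusted p = 7.38e-15). Vip neurons were the exception, with 1455 and 1785 CPM against 94.5 and 136 CPM in Lamp5 and 134 and 140.1 CPM in Pvalb neurons, and lay above the rest of their class (log2 fold change 2.67, SE 0.13, adjusted p = 2.93e-12). Among glutamatergic subclasses L5PT held most (2472 and 2136 CPM). GRM8 showed 3 separate peaks. It measured 419 and 441 CPM in Sst, 255 and 205 CPM in Pvalb and 289.8 and 316 CPM in L6CT neurons, and 3.46 to 22.3 CPM in the other GABAergic subclasses. L6CT neurons, which project to the thalamus, stood above the other glutamatergic subclasses (log2 fold change 4.20, SE 0.16, adjusted p = 5.23e-14). GRM4 was highest in IT_B (385 and 288 CPM), L5PT (307 and 325 CPM) and L5NP (343 and 259 CPM), and low in Pvalb (15.9 and 22.8 CPM), IT_D (28.2 and 28.1 CPM) and IT_A (39.3 and 40.3 CPM).

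GABA-A receptors combine alpha, beta and gamma subunits, and the alpha subunit largely sets their kinetics and place. GABRB2, a beta subunit of adult brain, was higher in GABAergic neurons (log2 fold change 0.34, SE 0.053, adjusted p = 1.6e-05), although the classes overlapped. It was lowest of all neurons in Sst, at 306 and 325 CPM (log2 fold change -1.81, SE 0.12, adjusted p = 1.54e-10 for Sst), and reached 1442 and 1286 CPM in Lamp5 neurons.

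GABRA5, the subunit of slow and mostly extrasynaptic receptors, went the other way. Its GABAergic sums held 7.03 to 79.5 CPM (median 34.4) and its glutamatergic sums 66.0 to 611 CPM (median 155) (log2 fold change -2.93, SE 0.093, adjusted p = 1.98e-16). The ranges met only at Frem1 (59.7 and 79.5 CPM) and IT_A (77.0 and 66.0 CPM). L6b (448 and 611 CPM), L6CT (427 and 371 CPM) and IT_C (429 and 356 CPM) were the highest.

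The remaining alpha and gamma genes each had their own pattern over subclasses. GABRA3 was higher in GABAergic neurons (log2 fold change 2.31, SE 0.16, adjusted p = 9.88e-11), with 58.6 and 44.1 CPM in Sst and 35.3 and 27.5 CPM in Pvalb neurons. Among glutamatergic subclasses it measured 23.0 and 27.7 CPM in L5PT and at most 7.53 CPM in any other sum (log2 fold change 3.07, SE 0.18, adjusted p = 3.11e-11). GABRG1, found in few cortical cells, reached 48.2 and 45 CPM in Frem1 and 18.2 and 12.6 CPM in Vip neurons, and at most 7.15 CPM in any other neuronal sum (log2 fold change 4.57, SE 0.33, adjusted p = 1.64e-09 for Frem1). GABRA2 was highest in Frem1 (361 and 423 CPM) and IT_A (384 and 389.6 CPM) and lowest in Pvalb (123 and 126 CPM). GABRA4 was highest in IT_A (181 and 183 CPM) and IT_B (181 and 165 CPM) and lowest in L5NP (30.8 and 38.2 CPM), below the rest of its class at -1.88 ± 0.14.

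GABA-B receptors need GABBR1 to bind GABA and GABBR2 to couple to the G protein. GABBR2 ran from 573 to 1579 CPM (median 1199) in GABAergic sums and from 554 to 2157 CPM (median 1501) in glutamatergic sums and was lower in the former at -0.47 ± 0.056. IT_D held most (2157 and 2103 CPM), and L6b (554 and 589 CPM) and Frem1 (573 and 574 CPM) least. The levels of L6b and Frem1 overlapped. GABBR1 kept to 36.4 to 93.2 CPM in neurons, with its highest values in L6b (89.0 and 93.2 CPM) and L6CT (81.0 and 91.9 CPM).

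Glycine receptors are best known from the brainstem and spinal cord, and GLRA2 and GLRA3 encode alpha subunits that also occur in forebrain. GLRA2 was higher in GABAergic neurons (log2 fold change 1.62, SE 0.08, adjusted p = 2.78e-13), with wide overlap. Vip (842 and 684 CPM) and Frem1 neurons (471 and 422 CPM) held most, and Lamp5 neurons, in the same class, held 24.2 and 30.2 CPM (log2 fold change -3.60, SE 0.20, adjusted p = 1.25e-11). Glutamatergic subclasses split too. L6b (265 and 262 CPM) and IT_B (197 and 239 CPM) lay above all others, L5PT (12.2 and 9.29 CPM) and L5NP (17.9 and 23.1 CPM) below. GLRA3 was higher in Pvalb (67.7 and 52.7 CPM) and Sst neurons (45.9 and 39.6 CPM) than in any other neuronal subclass, none of which passed 19.3 CPM. In Sst the log2 fold change against the other GABAergic subclasses was 1.43 ± 0.20, but -0.19 with equal nuclei per sum. GLRB measured 275 to 560 CPM in all neuronal sums.

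A second comparison set the interneurons derived from the medial ganglionic eminence (MGE: Pvalb and Sst) against those of the caudal eminence (CGE: Vip, Lamp5 and Frem1). Of 34 receptor genes tested, 9 were higher and 15 lower in MGE subclasses, where 24.4% of all genes tested were called (14.4% higher and 9.98% lower). GABA-A genes were 1 higher and 7 lower of 9 tested. The largest differences in favour of MGE neurons were in GRM8 (337 and 323 CPM against 10.9 and 14.5, log2 fold change 4.84, SE 0.23, adjusted p = 4.91e-13) and GRIK3 (1053 and 970.2 against 60.1 and 70.2, log2 fold change 3.76, SE 0.15, adjusted p = 2.71e-14). For GRM8 every MGE sum lay above every CGE sum, and the same held for GRIK3. GRIN2C, GRIK1 and GLRA3 were higher at 2.59 ± 0.28, 2.51 ± 0.29 and 2.33 ± 0.19. Among the lower genes with at least 20 CPM in CGE neurons in both animals, GRIK4 led. It measured 167 and 180.3 CPM against 1148 and 1066 (log2 fold change -2.51, SE 0.10, adjusted p = 7.93e-14), with no overlap. GABRA5, GRM4 and GABRB2 followed at -1.98 ± 0.17, -1.72 ± 0.12 and -0.83 ± 0.087. For GABRB2 the MGE level joins unlike subclasses, with 1176 and 1167 CPM in Pvalb and 306 and 325 CPM in Sst.

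Each of the 13 neuronal subclasses was then compared with the others of its class, which gave 442 tests of receptor genes. Of these, 130 were higher and 112 lower, where 15.8% of the tests over all genes were called. Pvalb had the most receptor genes called and Vip the fewest. In Pvalb 16 were higher and 12 lower, against 14.7% and 9.77% of all genes, 24.5% together. For GRIK3 and GLRA2, among the 16, the sign depended on the averaging, since their mean levels were 294 and 255 CPM in Pvalb against 481 and 345 CPM in the other GABAergic subclasses. The same held for single higher calls in IT_B (GRIA4), IT_D (GLRA2), L6b (GRM8) and Sst (GRM7). In Vip 6 were higher and 6 lower, against 7.11% and 5.95% of all genes, 13.1% together. For the other subclasses the counts higher and lower are followed by the shares of all genes that were higher, lower and called in all. Sst had 9 and 10 (11.0%, 6.8% and 17.8%). Lamp5 had 10 and 9 (7.9%, 5.78% and 13.7%). Frem1 had 10 and 9 (6.22%, 4.87% and 11.1%). Among glutamatergic subclasses IT_B had the most. IT_A had 7 and 7 (12.0%, 7.1% and 19.1%). IT_B had 14 and 8 (12.1%, 6.76% and 18.9%). IT_C had 10 and 6 (7.3%, 4.16% and 11.5%). IT_D had 9 and 8 (9.2%, 6.65% and 15.9%). The deep-layer subclasses had similar numbers. L5NP had 8 and 12 (9.9%, 7.56% and 17.5%). L5PT had 11 and 8 (10.4%, 6.08% and 16.5%). L6CT had 11 and 7 (8.52%, 5.58% and 14.1%). L6b had 9 and 10 (5.86%, 6.12% and 12.0%). GRIA4, GRM8, GRIK3 and GLRA2 each stood among the largest differences in several subclasses. In L5NP GRIK3 (1.72 ± 0.13) and GRM8 (1.98 ± 0.20) were higher and GABRA4 (-1.88 ± 0.14) and GRIK2 (-1.44 ± 0.13) lower. In L6b GLRA2 (2.27 ± 0.14) and GRIK3 (1.70 ± 0.13) were higher and GRIN2A (-1.62 ± 0.28) and GABBR2 (-1.44 ± 0.12) lower. In Frem1 GRIK4 (1.77 ± 0.11) and GABRA5 (1.67 ± 0.20) were higher and GRM8 (-3.73 ± 0.47) lower. All values are log2 fold changes ± SE, with adjusted p from 0.000211 downwards.

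IT_A and IT_C are the pair of intratelencephalic subclasses, neurons that project within the cortex, that the study set against each other. Of the 34 genes tested, 6 were higher in IT_A and 6 in IT_C, where 10.8% of all 16720 genes tested were called (5.87% and 4.98%). With the animal as a block the count was 25 (10 higher in IT_A and 15 in IT_C, 28.9% of all genes), and these included all 12. Sums of the same animal deviated together, with correlations of 0.114 to 0.609 between IT subclasses. With 58 nuclei drawn per sum it was 7 of 26 tested, 6 of them among the 12, and GABRA4, GABRA2, GRIN2B, GRIK4, GRIA1 and GRM4 were no longer called.

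GRIA4 was the leading gene of IT_A, with 1282 and 1241 CPM against 189.8 and 213 in IT_C (log2 fold change 2.67, SE 0.13, adjusted p = 1.89e-05). GABRA4 (181 and 183 against 97.4 and 79.5), GRIN2B (2457 and 2805 against 1724 and 1732), GRIK4 (828 and 869 against 518 and 599) and GRIA1 (593 and 493 against 369 and 364) were higher by 1.08 ± 0.13, 0.64 ± 0.14, 0.63 ± 0.13 and 0.59 ± 0.14. In IT_C the kainate subunit GRIK3 stood out, with 912 and 724 CPM against 90.6 and 63.1 in IT_A (log2 fold change -3.39, SE 0.20, adjusted p = 2.76e-05). GABRA5 measured 429 and 356 against 77.0 and 66.0 (log2 fold change -2.43, SE 0.13, adjusted p = 2.13e-05). GRM4 and GRM3 were lower in IT_A at -1.44 ± 0.14 and -1.42 ± 0.36. GABRA2 and GRM7 were among the 12 with smaller changes.

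**Figure D3:**
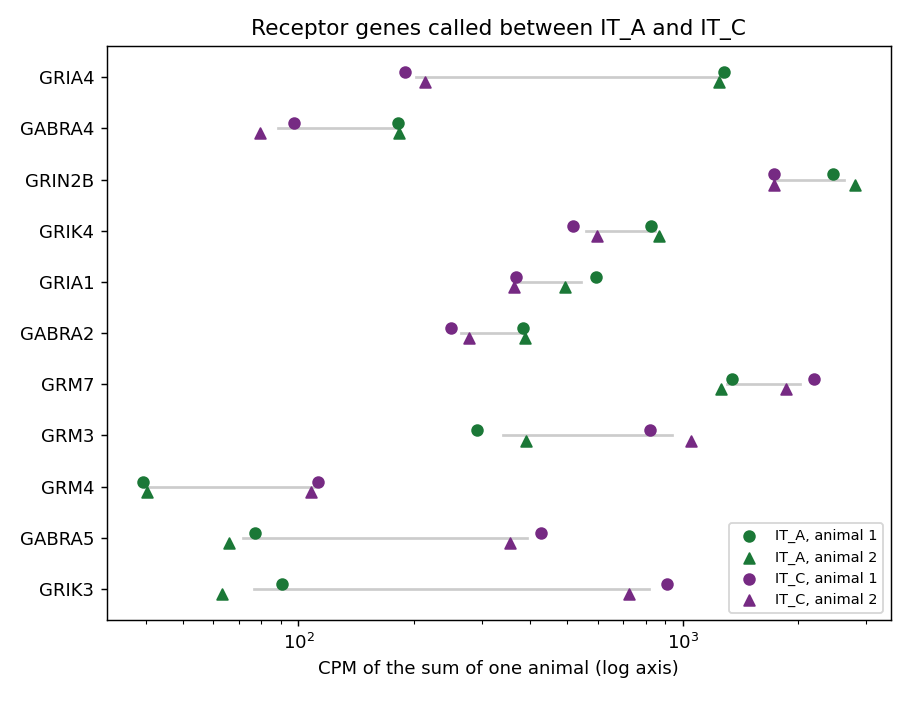
Level in CPM (log axis) of 11 of the 12 receptor genes called between IT_A (green) and IT_C (purple), circles for animal 1 and triangles for animal 2, with a line between the subclass means. GRIK3, GRIA4 and GABRA5 have the longest lines.

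IT_B did not lie between IT_A and IT_C for several of these genes, nor for GLRA2, which was not called between IT_A and IT_C. GRIK3 was lower in IT_B (47.7 and 48.1 CPM) than in IT_A (90.6 and 63.1 CPM). GRIK4 (151 and 142 CPM) and GRIA1 (224 and 222 CPM) were lower in IT_B than in either, and GRM4 (385 and 288 CPM) and GLRA2 (197 and 239 CPM) higher than in either, with no overlap of sums. Against the other glutamatergic subclasses IT_B was lower in GRIK4 (log2 fold change -2.62, SE 0.14, adjusted p = 4.88e-12) and higher in GLRA2 (log2 fold change 2.20, SE 0.11, adjusted p = 1.8e-12). IT_D, like IT_A, was high in GRIA4 (1564 and 1425 CPM) and had higher GRIK3 (553 and 365 CPM) than IT_A.

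The make-up of each family, as the share of its UMIs that came from each subunit gene, was compared between subclasses. Shares are of captured RNA and not of receptors. Only genes with a symbol entered the totals, so GRIN2D is missing from the GRIN2 shares and GRIK5 from the kainate shares. Of the AMPA UMIs, GRIA2 gave 70.2 and 70.9% in IT_B and 24.8 and 27.7% in Pvalb neurons, the highest and lowest neuronal shares. GRIA4 gave 1.44 and 1.57% in L6b and 29.3 and 29.3% in IT_D. GRIN2A gave 28.4 and 33.6% of the GRIN2 UMIs in Lamp5 and 27.0 and 22.5% in Sst neurons, against 5.14 and 4.43% in Frem1 neurons. In IT_A, IT_B and IT_C the GRIN2A share was higher in animal 2, 8.65 and 11.4% in IT_A and 10.1 and 15.2% in IT_C, but not in IT_D, with 14.5 and 12.8%. Of the kainate UMIs, GRIK3 gave 44.5 and 38.0% in IT_C and 5.42 and 3.86% in IT_A, and GRIK4 gave 52.0 and 50.8% in L5NP and 3.41 and 3.20% in Sst. In Pvalb neurons of animal 1 the GRIA2 share had an exact 95% binomial (Clopper-Pearson) interval of 24.4 to 25.2% from 44477 UMIs, which covers counting error only.

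**Figure D4:**
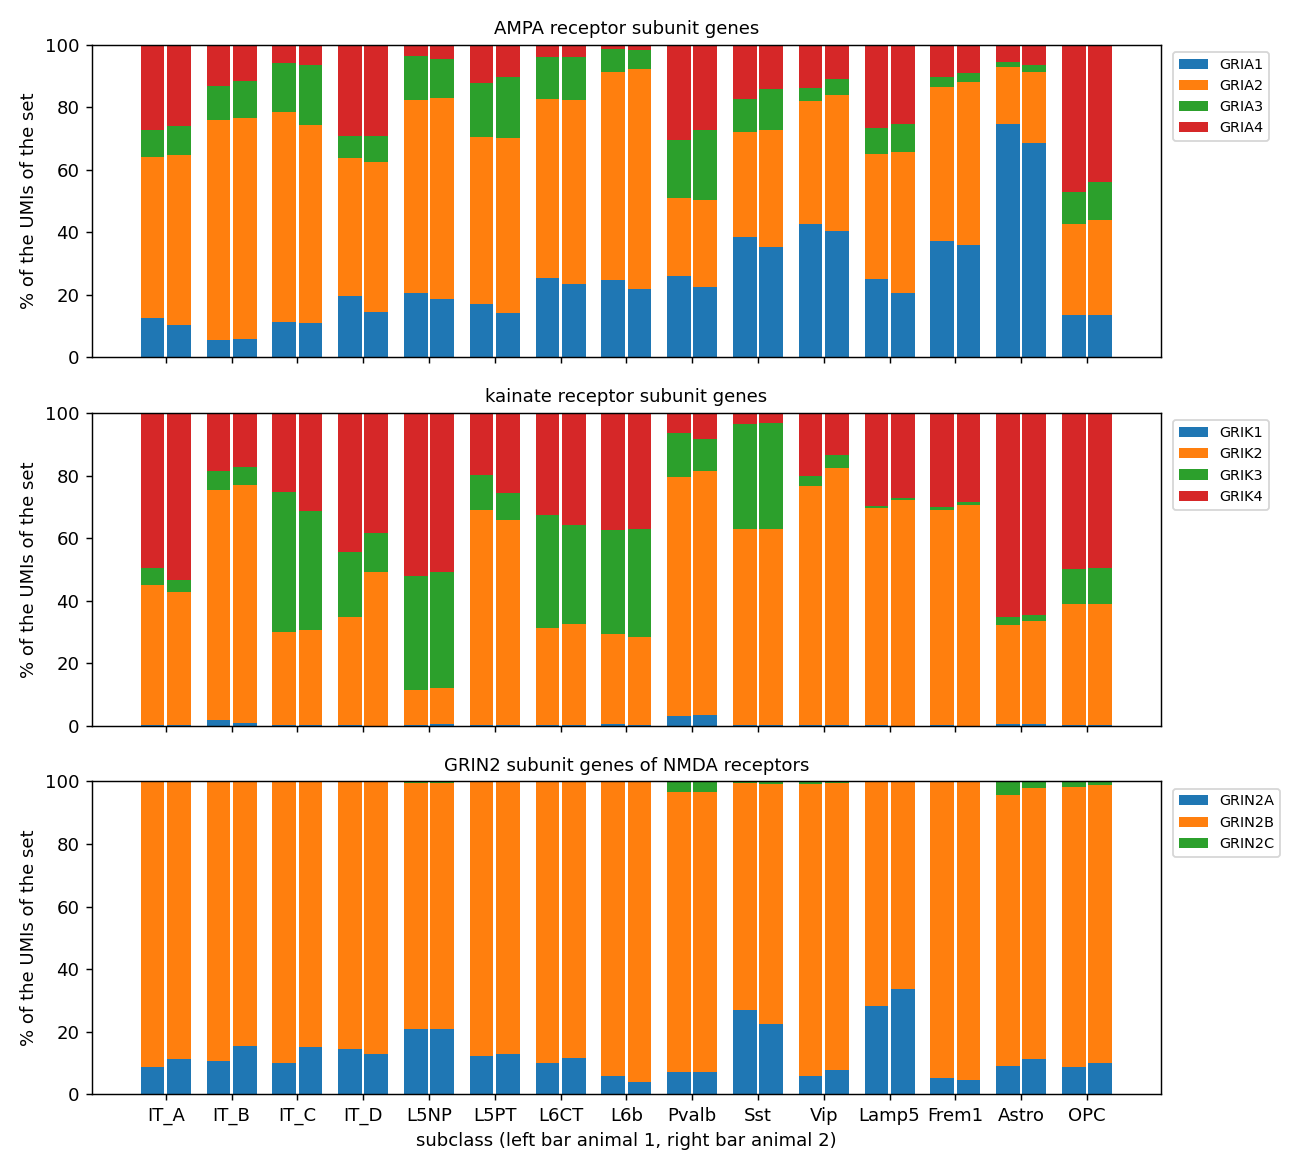
Share (%) of the UMIs of the AMPA, kainate and GRIN2 genes with a symbol that came from each gene, for the 13 neuronal subclasses, astrocytes and OPCs. Each subclass has a bar for animal 1 (left) and animal 2 (right), and the bars of the animals differ for example for GRIN2A in IT_C. GRIA2 fills 70.2 and 70.9% of the bars of IT_B and 24.8 and 27.7% of those of Pvalb, GRIK3 44.5 and 38.0% of those of IT_C, and GRIN2A 28.4 and 33.6% of those of Lamp5.

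Some receptor genes had closely similar profiles over the 13 neuronal subclasses. Of the 325 pairs among 26 genes, the most alike was GRIA1 with GRIK2 (Spearman rho 0.94 and 0.92 in animals 1 and 2), an AMPA and a kainate subunit both high in GABAergic neurons. GRIN1 and GRM7 gave 0.77 and 0.77 and GRM3 and GRM7 0.76 and 0.71. Being neighbours in the genome did not by itself go with a high value. In the RefSeq gene order of another opossum assembly GABRA2 and GABRA4, with no protein-coding gene between them, gave 0.46 and 0.26, and GLRB and GRIA2, also with none between them, gave -0.42 and -0.34.

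The most opposed pairs were GRIA1 with GRM3 (-0.82 and -0.88), GABRA4 with GRIK3 (-0.77 and -0.82) and GRIK2 with GRM3 (-0.76 and -0.85). These pairs were picked after all values were seen. The 13 points of an animal come from the same libraries and are closed to a fixed total, and the values are descriptive.

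In non-neuronal nuclei most receptor genes were low, and a few were higher than in neurons. Depth was lower there, with medians of 2111.5 and 2126 UMIs per nucleus against 8115 and 8055 in glutamatergic nuclei. Free RNA from neurons was measured with 6 genes of neurons (GAD1, GAD2, SLC32A1, RBFOX3, SNAP25 and SYT1), whose median level in astrocytes was 7.50 and 13.4% of that in neurons, in OPCs 11.5 and 27.0%, and in oligodendrocytes 7.36 and 13.5%. A receptor gene at or below such a share is read here as background. GRIN2B, for example, was at 7.44 and 7.92% of its neuronal level in astrocytes and 6.54 and 9.36% in oligodendrocytes.

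Astrocytes, which take up glutamate and sense it through metabotropic receptors, had 6 of 35 genes higher and 22 lower than neurons, where 55.2% of all 17227 genes tested were called (29.3% higher and 25.9% lower). GRM3 measured 3971 and 3713 CPM, against 330.1 and 415 CPM as the mean of the neuronal subclasses (log2 fold change 4.40, SE 0.14, adjusted p = 4.03e-21). That was 988 and 756% of the level in all neurons pooled, above any share of free neuronal RNA. GABRA3 measured 149 and 118 CPM against 14.9 and 12.9 CPM (log2 fold change 4.07, SE 0.12, adjusted p = 1.5e-21). GRIA1 (1486 and 1349 CPM) and GRIK4 (1001 and 1080.3 CPM) were higher by 0.83 ± 0.11 and 0.63 ± 0.10, and both lay within the range of the neuronal sums. GABRB2 was not called (log2 fold change 0.19, SE 0.11, adjusted p = 0.142), with 823 and 875 CPM against 780.4 and 809 CPM. GRIN3B, at 8.56 and 13 CPM (30 and 32 UMIs), stayed below 20 CPM, and most neuronal sums held none of it.

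Oligodendrocyte precursor cells (OPCs) are the glia that receive synapses from neurons. They had 11 of 35 receptor genes higher and 17 lower than neurons (44.3% of all genes called, 23.4% higher and 21% lower). With equal nuclei per sum, 5 of 30 tested were higher and 15 lower (24.3% of all genes called). For GRIK3 and GRIN2C, among the 11, the sign depended on the averaging, since their mean levels were 397 and 8.87 CPM in OPCs against 564 and 10.8 CPM in neurons. The glycine receptor gene GLRA3 measured 269 and 254 CPM, above every neuronal sum (log2 fold change 4.26, SE 0.13, adjusted p = 2.79e-21). GABRA3 (118 and 128 CPM) and GRIA4 (1942 and 1785 CPM) were higher at 3.91 ± 0.13 and 2.07 ± 0.10, the latter near its level in Lamp5 neurons. GRIK4 (1779 and 1674 CPM) and GRID1 (446 and 418 CPM) were higher at 1.33 ± 0.093 and 0.65 ± 0.09. GRM7 stood at 73.5 and 77.5% of its neuronal level and GRIA2 at 56.4 and 54.2%. The highest reference gene stood at 28.3 and 60.6%, so that GRM7 exceeded it in both animals and GRIA2 in animal 1 only. Of the 5 NMDA genes 3 were lower and 2 higher, GRIN2C at 23 and 11 UMIs and GRIN3B at 4 and 1 UMIs in all OPCs, too few to read a level from GRIN3B. GRIN1 stood at 6.86 and 9.25% and GRIN2A at 21.3 and 18% of their neuronal levels, no higher than the highest reference gene.

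Oligodendrocytes had 3 genes higher and 30 lower of 35 (59.3% of all genes called, 30.7% higher and 28.7% lower). GABRA3, 1 of the 3, had a mean level of 13.1 CPM against 13.9 CPM in neurons, so that its sign depended on the averaging. Microglia had 1 gene higher, GRIN3B at 3 and 2 UMIs, and 28 lower (45.4% of all genes called, 20.8% higher and 24.6% lower), and endothelial nuclei 25 lower (16.9% of all genes called, 10.6% lower). At 29 and 36 endothelial nuclei, 3 UMIs correspond to 61.8 and 51.8 CPM, so that low receptor levels could not be told from 0 there. In microglia of animal 2 the highest of the 6 reference genes stood at 155% of its neuronal level.

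**Figure D5:**
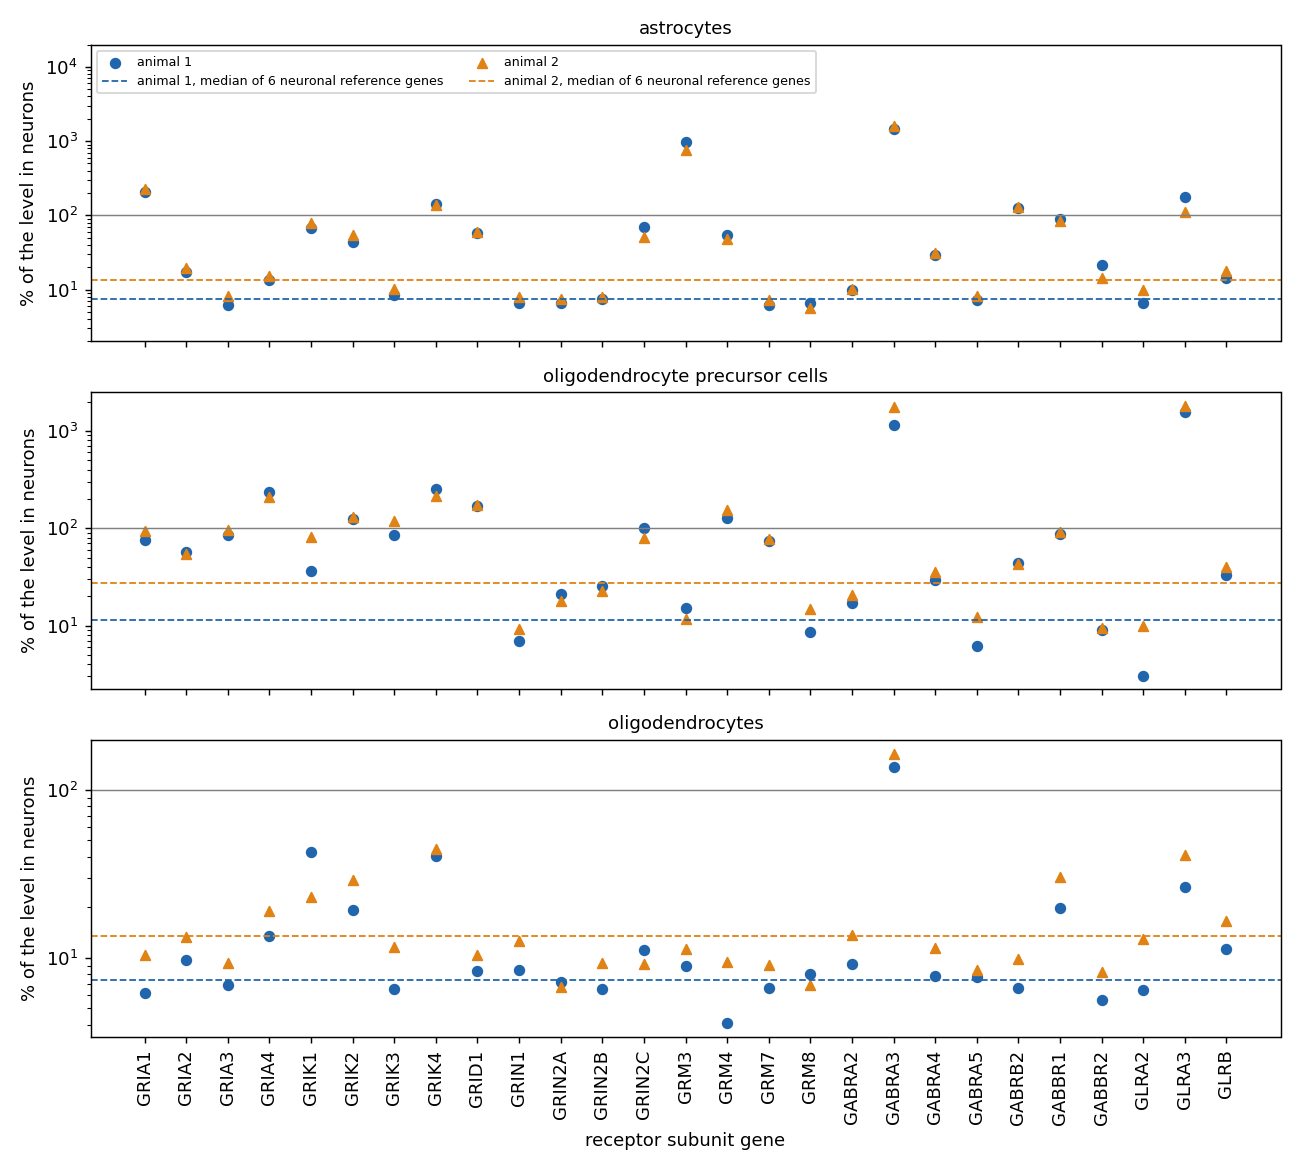
Level of receptor genes with at least 10 CPM in neurons in astrocytes, OPCs and oligodendrocytes, as a percentage of the level in all neurons of the same animal (log axis). Circles are animal 1 and triangles animal 2, dashed lines mark the median of the 6 neuronal reference genes in each animal, and the grey line is 100%. GABRA3 lies above 100% in each panel, GRM3 in astrocytes, and GLRA3 in astrocytes and OPCs.

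Proteins that escort, anchor or organise these receptors were listed as well, 38 genes of which 18 had a symbol in the files. Between GABAergic and glutamatergic subclasses 2 of the 18 were higher and 12 lower (42.8% of all genes called), between MGE and CGE 4 and 4 (24.4% of all genes). CNIH3, an AMPA auxiliary subunit that slows channel closing, was lower in MGE neurons (19.3 and 18.7 CPM against 243 and 162, log2 fold change -3.18 ± 0.18), and NETO1, a kainate auxiliary subunit, higher (756 and 722 against 192 and 181, log2 fold change 2.31 ± 0.10). Between IT_A and IT_C 4 of 17 were higher and 2 lower (10.8% of all genes). GSG1L, an AMPA auxiliary subunit that dampens the channel, measured 113 and 105 CPM in IT_A and 9.90 and 9.57 in IT_C (log2 fold change 3.52 ± 0.30), and KCTD16, a GABA-B auxiliary subunit, 2727 and 2897 and 917 and 943 (1.63 ± 0.16). CNIH3 went the other way, at 65.2 and 48.0 against 214 and 183 (-1.79 ± 0.18).

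KCTD16 also differed widely among glutamatergic subclasses. It measured 5486 and 6517 CPM in IT_D and 78.1 and 61.5 in L6b neurons, log2 fold changes of 3.10 ± 0.10 and -4.43 ± 0.20 against the other glutamatergic subclasses, and GABBR2 was highest in IT_D and lowest in L6b within that class. In OPCs 3 partner genes were higher and 10 lower than in neurons (44.3% of all genes). GSG1L (564 and 565 CPM against 57.8 and 51.1, log2 fold change 4.52 ± 0.13) and CACNG4, which traffics AMPA receptors (868 and 845 against 60.4 and 60.7, 3.98 ± 0.10), were the largest. HOMER3, a scaffold of metabotropic receptors, was higher in astrocytes (28.5 and 35.2 against 2.75 and 2.84, 4.10 ± 0.22).

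Between the animals, receptor levels mostly differed little. GRIN1 was higher in animal 2 in 15 of 17 subclasses with at least 10 UMIs in both, and GABBR1 in 15 of 16. GRIA1 was higher in animal 2 in only 2 of 17, with a median ratio of 0.911. With 1 animal on each side these differences have no replicate check, and subclasses of an animal are not replicates of it. Among the partner genes, the scaffold gene HOMER1 differed more, and measured 772 and 1571 CPM over glutamatergic subclasses.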

How the data were processed

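The authors deposited UMI counts per gene and nucleus for 4 libraries (10x Genomics 3' v3), with subclass labels and, for each nucleus, the doublet score of Scrublet (deposited as a fraction). Per the submitters' processing notes Cell Ranger 6.1.1 was used, while the matrix headers name version 7.1.0. Reads were aligned to assembly ASM229v1 with Ensembl genes whose 3' ends the authors had extended, introns included, so that genes with long introns or poorly annotated ends may be over- or undercounted. Of 36558 barcodes in the files, 32764 carried a subclass label and were used; 2315 of those without one had passed the initial quality call of the authors. The 798 labelled nuclei called doublets were kept.

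Counts of both libraries of an animal were summed per subclass, giving 36 sums. Separate fits were made in edgeR 4.0.16 (R 4.3.3; TMM, filterByExpr, quasi-likelihood F test, Benjamini-Hochberg adjustment over all genes tested at 0.05): 26 neuronal sums (16156 genes), 8 IT sums (16720 genes) and all 36 sums (17227 genes). SE is the log2 fold change divided by the square root of F, and CPM uses the raw total of each sum. Tables used Python 3.11.15 with pandas 2.3.3. Errors rest on 2 animals. Sums from the same animal pair across subclasses. What an animal's sums departed from the mean of both animals by was correlated between subclasses, at 0.114 to 0.609 in the IT fit and 0.0345 to 0.622 (median 0.172) in the neuronal fit. The animal was no term of the main fits and was added as a block in an alternative. Other alternatives were RLE normalization, DESeq2 1.42.0, no count filter, removal of doublets, equal nuclei per sum (53, 58 and 29 in the neuronal, IT and full fits), subclasses under 100 nuclei left out, a joint adjustment over the 13 subclass contrasts, subtraction of free RNA, and each animal alone. Named genes were up to 5 in each direction with the largest fold change among those called, with at least 20 CPM in the higher group and the same direction in both animals; other genes are given to complete a family. Members and lists were chosen with earlier results of these data known. In simulated counts, 100 of 100 genes changed 2-fold were recovered between GABAergic and glutamatergic subclasses (14982 genes, 15 false calls), 90 of 100 between IT_A and IT_C (16135 genes, 8 false calls) and 99 of 100 between astrocytes and neurons (14689 genes, 5 false calls). Results on some receptor genes are not reported here, though totals and counts include them.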

Additional observations from a re-analysis of the deposited data

How the results depend on the processing

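The count of receptor genes called between IT_A and IT_C changed most, from 12 to 25 with the animal as a replicate block and to 7 with equal nuclei per sum, where 26 genes were tested. The block moved no other comparison's count of calls by more than 1.5 times (242 to 279 for the subclass contrasts) and ended no call of a named gene. Of 195 named values over 31 genes, tested under 1505 alternatives, 1478 kept their direction and side of the threshold, 25 were no longer past it and 2 changed sign. These were GLRA2 in L6CT, at 0.10 with subclasses under 100 nuclei left out, and GLRA3 in Sst, at -0.19 with equal nuclei, neither past the threshold; the cause was not tested. Fewer nuclei accounted for 22 of the 25. Each animal alone gave the same sign for 390 of 390 values. The naming rule asked for the same direction in both animals, so this agreement was fixed in advance and is no check. Of these values, 13 without animal 1 and 14 without animal 2 moved by more than the spread between animals. Counts of calls without an animal could not be made, as no residual degrees of freedom were left, and leaving out small subclasses removed the endothelial nuclei, so that comparison has no such value. With 2 animals, and 29 and 36 endothelial nuclei, low genes in small subclasses were beyond the depth, and the p-values measure only the spread between these animals.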
